A study of Mus with 8 samples.

Results

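Among the C/EBPβ sites of 3T3-L1 cells there were 977 regions that were listed early in Prep1 down-regulated (P) cells and only later in control (C) cells. They were chosen by their peak calls. The peaks of 4 lists were merged wherever they overlapped by at least 1 bp, which gave 28658 regions, and a region was a member when it held a peak in P cells at day −2, in C cells at 4 h and in P cells at 4 h, and none in C cells at day −2. The members were 3.41% of all regions. They measured 198 to 1381 bp with a median of 330 bp, and together they covered 389 kb. Because presence and absence in the lists chose the members, the calls themselves are not a finding, and no test is given for them.

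3T3-L1 is a mouse preadipocyte line that turns into fat cells under a hormone cocktail. C cells carried a scrambled hairpin and P cells a hairpin against Prep1, both delivered by lentivirus and followed by selection in puromycin, so that every group had been infected and selected. The peak lists do not measure Prep1 itself, and its level was not checked here. Cells were collected at day −2, ahead of induction, and 4 h after the change to a medium with insulin (1 μg/ml), dexamethasone (1 μM), isobutylmethylxanthine (0.5 mM) and 10% FBS. The day −2 lists name their peaks with a tag of 0 h and the 4 h lists with one of 5 h, and the labels were followed here. Each of these 4 groups had 1 ChIP library and 1 input library. No value below therefore has a replicate. The 95% intervals of shares and medians describe how well a number of regions fixes the value within these libraries, those of fragment ratios cover counting error, and none covers the spread between cultures. A ChIP on a whole culture also cannot tell more cells with a bound site from more binding per cell.

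C/EBPβ is a basic leucine zipper factor that is present early in adipogenesis, binds many enhancers within hours of the cocktail, and acts ahead of C/EBPα and PPARγ, the regulators that carry the fat cell programme. Prep1 (Pknox1) is a homeodomain protein of the TALE class that works on DNA together with Pbx partners. The comparison of lists asked which places are occupied by C/EBPβ before and after the hormones in each cell type, and the members are places that can be followed through 3 of the 4 libraries.

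The members were set beside 3 other classes of region. In 507 regions there was a peak in all 4 lists. In 261 regions the gap was the opposite one, with a peak in C cells at day −2 and in both cell types at 4 h but none in P cells at day −2. A further 9787 regions had a peak in both cell types at 4 h and none at day −2. The depth implied by the background of the lists was 7.82 to 7.85 M reads per ChIP library. Fragment length was not measured but taken as the shortest peak of each list, and the implied depth was computed with it. This length differed more, with 215 bp for the C library of day −2 and 159 to 164 bp for the remaining 3.

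Enrichment at the members was lowest in P cells at day −2 and highest in P cells at 4 h. Fold enrichment, the ChIP signal at the summit over the local input background, was 9.47 by the median in P cells at day −2, with an interquartile range of 7.97 to 11.5. In C cells at 4 h the median was 14.2 (9.80 to 20.3), and in P cells at 4 h it was 24.96 (18.0 to 35.0). The first of these ranges lay wholly below the last. In ChIP fragments covering the summit the medians were 18, 28 and 52, and in −log10 p of the peak call 16.3, 31.4 and 66.6. The regions with a peak in all 4 lists were stronger throughout, with medians of 12.2 for P at day −2, 19.96 for C at 4 h and 31.5 for P at 4 h. The regions missing from the P list at day −2 stood at 14.7 in C cells at 4 h and at 18.6 in P cells by the median, so they were close to the members in C cells and lay lower in P cells.

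**Figure D1:**
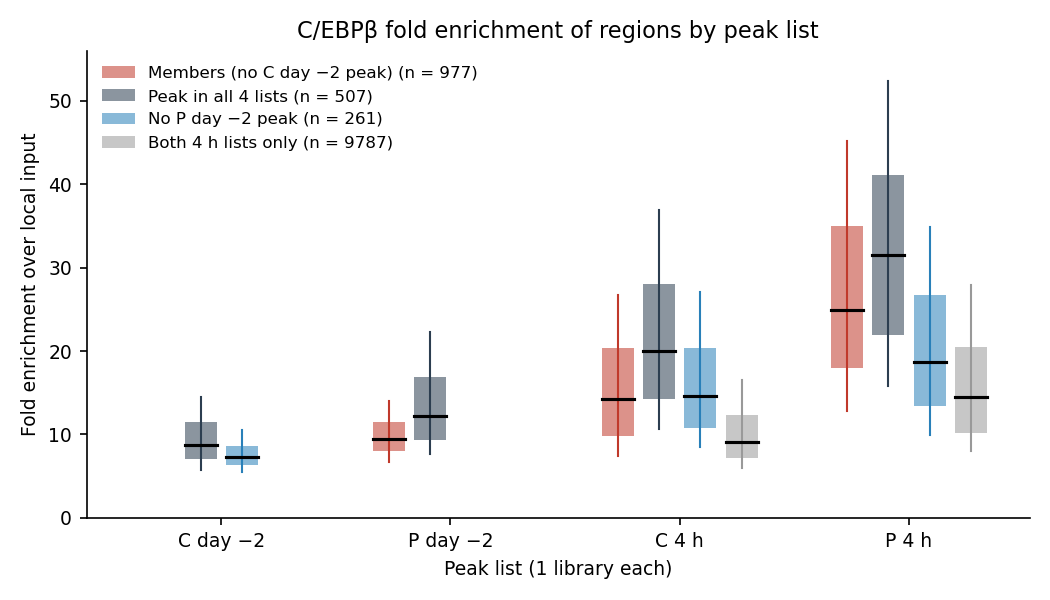
Fold enrichment over local input (vertical axis) in the 4 peak lists (horizontal axis, 1 library each) for 4 classes of region. Boxes span the interquartile range of the regions, lines run from the 10th to the 90th percentile and black bars mark medians; the members go from 9.47 for P at day −2 to 14.2 for C and 24.96 for P at 4 h.

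Taken region by region, 640 of the 977 members (65.5%, 62.5 to 68.4) had the order P at day −2, then C at 4 h, then P at 4 h from low to high. In 204 members (20.9%) the value of P cells at day −2 lay between C cells at 4 h and P cells at 4 h. Another 80 members were highest in C cells at 4 h with P cells at day −2 lowest, and 38 were highest in P cells at day −2. Fold enrichment in P cells before the hormones thus exceeded that of C cells after them in 242 members (24.8%, 22.2 to 27.6). This was near the 22.6% of all 1484 regions with these peaks, of which the members were the larger part. Among the 507 regions with a peak in all 4 lists it was so in 93.

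The distance of the members from the call in C cells at day −2 was then examined, since a site just under the threshold is missing from a list in the same way as an unbound one. At the same relative input background, the p at the summit alone needed a median of 8 fragments in the C library at day −2. This count leaves out the length that a peak must have, so it can be too low. The members had a median of 18 fragments in P cells, and the peaks of the C list at day −2 also had a median of 18. The fragments in P cells were at least 2 times the number needed by p in 642 members (65.7%) and less than 1.5 times in 72 (7.37%). These shares do not say how many members would have been called in C cells. The 2 cell types also differed at day −2 where both had a peak. At the 507 regions with a peak in all 4 lists, fold enrichment at day −2 was 1.40 times as high in P as in C cells by the median. Whether this factor belongs to the libraries or to binding in the cells was not tested. It also comes only from regions that were called in C cells. When the members' values were lowered by this factor, their median was 6.78, against a first quartile of 6.56 and a median of 8.01 among all peaks of the C list at day −2. After that lowering, 210 members (21.5%) were under 5.51, the lowest decile of the C list, and 274 (28.0%) stood above its median. How many members were only a little under the threshold in C cells was not measured, because the lists give no value where there is no peak.

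Peak width bears on the same question. The P peak at day −2 was narrower than 215 bp, the shortest peak of the C list at day −2, in 598 members (61.2%, 58.1 to 64.2). The 215 bp are the same value as the fragment length given above, and the shortest P peak at day −2 was 163 bp. Widths in the 2 lists thus start from different lengths, and this share does not count the sites that were missed in C cells. Among the regions with a peak in all 4 lists the P peak was narrower than 215 bp in 177 of 507 (34.9%, 30.9 to 39.2). Leaving out P peaks this narrow kept 379 of the 977 members, and taking as many peaks from the P list as from the C list at each time kept 408, so more than 1.5 times fewer in both cases. The part of fragment length in the missing C calls was not tested.

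The members nearest the threshold were as follows. The lowest −log10 p in P cells at day −2 was 5.03, at chr4:89136484-89136933, with 9 fragments there and, at 4 h, 37 for C and 44 for P cells. The next was 5.47, at chr1:45823968-45824799. The lowest −log10 p in C cells at 4 h was 6.20, at chr13:46026665-46027187, followed by 6.40 at chr19:12080424-12080810, which had 16 fragments in P cells at day −2, 8 in C cells at 4 h and 19 in P cells at 4 h. Just outside the class, with a weak C peak at day −2, lay chr3:51561001-51561309, where the day −2 −log10 p was 5.88 for C and 13.8 for P cells. The other was chr11:48669775-48670274, at 6.14 in C and 5.86 in P cells.

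The strongest members were called far above the threshold in each of the 3 lists. They were picked by the lowest of their 3 −log10 p values and are given by pattern, not by rank, and all coordinates are mm9. At chr17:80181024-80181471 fold enrichment was 26.4 in P cells at day −2, 26.1 in C cells at 4 h and 24.96 for P at 4 h, from 52, 51 and 74 fragments. This site therefore stood at nearly the same fold enrichment before induction in P cells and after it in both cell types, and the nearest C peak at day −2 was 778648 bp away. The input there was 2.11, 2.09 and 4.34 times the genome background. That background was 0.47, 0.48 and 0.46 fragments in these 3 lists, so such multiples stand for few input fragments. In fragments the ratio of P over C cells at 4 h was 1.45 (1.002 to 2.12). At chr6:32117713-32118057 the values were 26.6, 19.7 and 46.6, with P cells at day −2 above C cells at 4 h in fold enrichment. The fragments there were 44, 58 and 105, so that P cells at day −2 were lower by count. Its input stood at 1.44 times the genome background in P cells at day −2 and at 4.18 times in C cells at 4 h. The same order of fold enrichment held at chrX:153766270-153766824, with 26.1, 22.6 and 44.4, and at chr2:117864535-117865366, with 24.0, 17.5 and 36.1. In fragments the site on chromosome X had 38, 40 and 64, which did not keep this order. The site on chromosome 2 had 49, 45 and 73, which did.

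At 3 others of the strongest members P cells at day −2 had the lowest fold enrichment. At chr3:142283159-142283557 fold enrichment was 16.2 in P cells at day −2, 40.7 in C cells at 4 h and 82.0 in P cells at 4 h, the highest value of any member in any list. At chr15:42460212-42460553 it was 20.01, 34.5 and 51.7, and at chr10:107052569-107052934 it was 13.6, 21.6 and 23.7. Fragments kept this order on chromosome 3 (64, 73 and 136) and chromosome 15 (42, 56 and 82). On chromosome 10 they were 67, 41 and 102, lowest in C cells at 4 h. The input there was 8.44 times the genome background in P cells at day −2 and 1.99 times in C cells at 4 h. A second site on chromosome 6, chr6:31436684-31436984, had 21.8, 30.8 and 16.7, so that its lowest fold enrichment was that of P cells at 4 h. Its fragments were 43, 56 and 66, so that the fragment count was higher in P cells while the input there stood at 1.78 times the genome background for C and 6.51 times for P cells. At these sites the summits of P cells at day −2 and at 4 h lay 6 to 23 bp apart, except at the site on chromosome X, where they were 144 bp apart.

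At 4 h the members were more enriched in P than in C cells. The median log2 ratio of fold enrichment, P over C, was 0.80 (0.75 to 0.85), a 1.74-fold difference, and it was above 0 in 866 of 977 members. Fold enrichment was at least 1.5 times as high in P cells in 630 members (64.5%, 61.4 to 67.4), beside 51.6% of the 11532 regions with a peak in both cell types at 4 h. It was at least 1.5 times lower in 17 members (1.74%, 1.09 to 2.77), beside 3.56%. Fragment counts gave a median log2 ratio of 0.84 (0.81 to 0.87). More fragments were counted in P cells in 952 members (97.4%), fewer in 15 and the same number in 10, beside 88.4% of all regions with both 4 h peaks and 94.1% of the regions in all 4 lists. The input background differed little by the median, with a log2 ratio of 0.06 in the members and the same value in each of the other 3 classes.

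**Figure D2:**
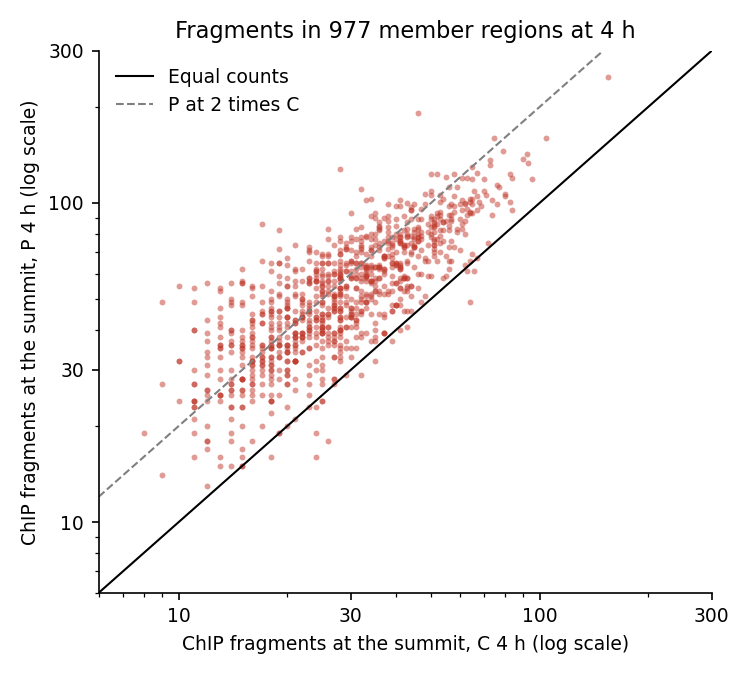
ChIP fragments at the summit in C cells (horizontal axis) and P cells (vertical axis) at 4 h, both on a log scale, with 1 point per member. The solid line marks equal counts and the dashed line P at 2 times C; 952 of the 977 points lie above the solid line.

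The members had the highest median of the 4 classes in this comparison. In the log2 P/C ratio the median was 0.59 (0.52 to 0.65) in the regions with a peak in all 4 lists and 0.60 (0.58 to 0.62) in the regions with peaks at 4 h only. It was 0.31 (0.19 to 0.40) in the regions missing from the P list at day −2. Fold enrichment was at least 1.5 times as high in P cells in 254 of 507 (50.1%, 45.8 to 54.4), 4986 of 9787 (50.9%, 49.95 to 51.9) and 85 of 261 (32.6%, 27.2 to 38.5) regions of these classes. The members' values were higher than those of all 3 classes, in 1 pair of libraries. The regions with the opposite gap at day −2 had the lowest median, and P cells were higher by the median in every class.

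**Figure D3:**
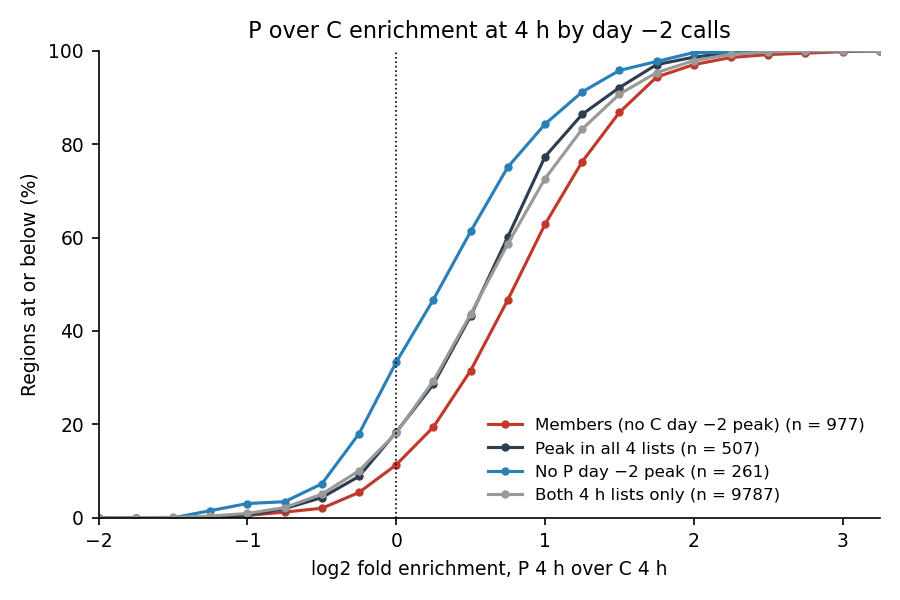
Percent of regions (vertical axis) at or below a given log2 ratio of fold enrichment, P over C, at 4 h (horizontal axis) for 4 classes of region, with the dotted line at equal enrichment. The curve of the members lies to the right, with a median of 0.80, that of the regions missing from the P list at day −2 to the left, with 0.31, and the curves of the remaining classes lie close together.

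The classes were then compared at like levels. When regions with both 4 h peaks were divided into quintiles of their mean fold enrichment at 4 h, 492 of the members were in the strongest quintile and 44 in the weakest. In the strongest quintile the median log2 ratio was 0.77 in the members, 0.73 in the regions with peaks at 4 h only, 0.61 in those of all 4 lists and 0.39 in those missing from the P list at day −2. In the fourth quintile the values were 0.90, 0.76, 0.53 and 0.22, and in the third 0.85, 0.72, 0.69 and 0.24. In the second they were 0.87, 0.57, 0.46 and −0.05, the last 2 from 12 and 28 regions. The members were thus above the regions that appear at 4 h only in all 5 quintiles, by most in the second and by least in the strongest, and the interquartile ranges of these classes overlapped in every quintile. In the weakest quintile the members and the regions with peaks at 4 h only had 0.42 and 0.34, and the regions missing from the P list also 0.34, from 14 regions.

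**Figure D4:**
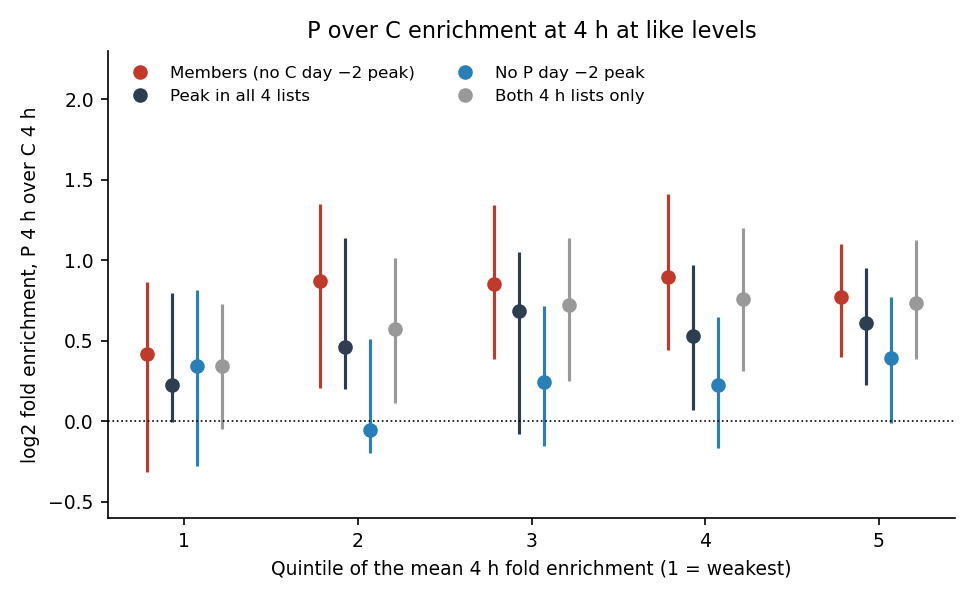
log2 ratio of fold enrichment, P over C, at 4 h (vertical axis) in quintiles of the mean 4 h fold enrichment of a region (horizontal axis, 1 is weakest). Points are medians and lines span the interquartile range; the members are at 0.42 in the weakest quintile and at 0.77 to 0.90 in the others.

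The members with the most extreme P/C ratios at 4 h stood out in their input. The highest ratio was 8.37-fold, at chr1:135016542-135016941, with fold enrichments of 8.11 in P cells at day −2 and, at 4 h, of 4.77 for C and 39.9 for P cells. Next came chr7:141803124-141803624 with an 8.18-fold and chr10:76869368-76869692 with a 7.32-fold ratio. At these 3 sites the 4 h input of C cells stood at 6.27, 6.27 and 8.36 times the genome background, and that of P cells at 1.42, 1.66 and 1.76 times. The genome background at 4 h was 0.48 fragments for C and 0.46 for P cells, so these multiples rest on few input fragments. The counting error of the input was not estimated. The fragments were 18 and 65, 15 and 57, and 20 and 55 in C and P cells, ratios of 3.61 (2.12 to 6.47), 3.80 (2.12 to 7.23) and 2.75 (1.62 to 4.84). These ratios remained above 1 within their counting intervals, and were smaller than the ratios of fold enrichment.

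The lowest ratios had the reverse pattern of input. Fold enrichment in P cells was 0.41 times that in C cells at chr17:32254205-32254482 (7.16 and 17.6), 0.42 times at chr11:109746175-109746495 (9.65 and 23.1) and 0.46 times at chr7:138155430-138155739 (7.99 and 17.5). The input background of P cells was 10.9 times the genome background at each of them, and that of C cells 1.00, 1.71 and 1.37 times. These multiples again rest on few input fragments. The fragments at these sites were 25 in C and 42 in P cells, 41 and 57, and 28 and 47. In fragments P cells were thus higher at all 3 sites, with counting intervals of the ratio that lay above 1 at the first and the last.

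Within P cells the members were more enriched at 4 h than at day −2. The median log2 ratio of 4 h over day −2 was 1.41 (1.36 to 1.45), a 2.66-fold difference. It reached at least 2-fold in 673 members (68.9%, 65.9 to 71.7), beside 63.3% of the 1628 regions with a peak in P cells at both times, of which the members were the larger part. It was 66.6% for the 1484 of these regions that C cells also held at 4 h, which is inside the interval of the members. It was at least 2-fold lower in 1 member, beside 0.123%. The regions with a peak in all 4 lists had a median of 1.25 (1.16 to 1.36). The comparison shares the P library at 4 h with the one between cell types, and a region that was weak at day −2 starts from near the threshold of the call.

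Between P cells at day −2 and C cells at 4 h the difference was smaller. The median log2 ratio, C at 4 h over P at day −2, was 0.54 (0.49 to 0.62), a 1.45-fold difference. In 470 members (48.1%) C cells at 4 h were at least 1.5 times as high, beside 50.1% of the 1484 regions with these peaks, and in 64 (6.55%) at least 1.5 times lower, beside 6.13%. The members were near this common share in both directions, and they were the larger part of those regions. In the regions with a peak in all 4 lists, C cells at 4 h were at least 1.5 times as high in 54.0% (49.7 to 58.3). They were at least 1.5 times lower in 5.33% (3.69 to 7.64), and the median log2 ratio was 0.67 (0.57 to 0.74). Among the members, the largest excess of P cells at day −2 was 4.32-fold, at chr13:46026665-46027187. Fold enrichment there was 16.2 in P cells at day −2 and, at 4 h, 3.76 for C and 17.6 for P cells. The next was 2.71-fold, at chr5:13090492-13090746, with 15.4, 5.68 and 14.5. The third was 2.50-fold, at chrX:11583799-11584070, with 13.4, 5.35 and 21.7. The fragments of P cells at day −2 and C cells at 4 h were 27 and 14, 24 and 16, and 19 and 15, so that the excess was smaller in fragments. At these sites the input background of C cells at 4 h was 6.27, 4.18 and 4.18 times the genome background, against 1.51, 1.31 and 1.03 times in P cells at day −2.

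The level of the members before induction was compared with that afterwards. Across the 977 members, Spearman's rho of fold enrichment in P cells at day −2 was 0.12 with C cells at 4 h and 0.14 with P cells at 4 h, while rho between the cell types at 4 h was 0.59. These are descriptions across regions of the same libraries, which share input and depth. In fragments the values were 0.26, 0.31 and 0.79. In the regions with a peak in all 4 lists, rho of P cells at day −2 was 0.32 and 0.31 in fold enrichment and 0.48 and 0.52 in fragments. The members cover a narrower range at day −2, which the rule bounds from below by the call in P cells. In quartiles of the day −2 level, from weakest to strongest, the median fold enrichment of P cells at 4 h was 24.0, 22.9, 25.5 and 29.5. The median log2 ratio of P cells at 4 h over day −2 fell, with 1.87, 1.42, 1.30 and 0.99, and the level that sets the quartiles is its denominator. The median log2 P/C ratio at 4 h was 0.81, 0.83, 0.76 and 0.79 in the same quartiles. The excess of P over C cells at 4 h was therefore nearly the same for members that were weak and strong in P cells at day −2.

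The summits of a member lay at nearly the same place in the 3 lists. The summit of P cells at day −2 was within 50 bp of that of C cells at 4 h in 857 members (87.7%, 85.5 to 89.6) and within 50 bp of that of P cells at 4 h in 868 (88.8%, 86.7 to 90.7). The median distance was 15 bp in both comparisons. Between the cell types at 4 h the summits were within 50 bp in 94.3% of members, with a median of 11 bp. In the regions with a peak in all 4 lists, the summits of P cells at day −2 and C cells at 4 h were within 50 bp in 93.9% (91.5 to 95.7), with a median of 11 bp. The farthest pair of summits of P cells at day −2 and C cells at 4 h in a member was 494 bp apart.

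The place of the members in the 4 h lists follows in part from the rule, since a region called in 3 libraries tends to be strong and a region called in 1 list only could not be a member. They made up 3.66% (3.44 to 3.89) of the 26711 regions of the P list at 4 h and 7.27% (6.84 to 7.72) of the 13440 of the C list. Of the strongest decile of the P regions at 4 h, 554 of 2671 (20.7%, 19.2 to 22.3) were members, which was 56.7% of all members. The regions with a peak in all 4 lists had a larger part of their number there, 75.1%, and those missing from the P list at day −2 a smaller one, 36.0%. The second decile held 225 (8.42%) and the third 91 (3.41%), and each of the weakest 5 deciles held 14 or fewer. Regions with a peak in all 4 lists made up 14.3% of the strongest decile and those missing from the P list at day −2 3.52%. Among the 100 P peaks of highest −log10 p at 4 h, 34 were members, 44 had a peak in all 4 lists, 21 had peaks at 4 h only and 1 was missing from the P list at day −2. In C cells the strongest decile at 4 h held 312 members (23.2%, 21.0 to 25.5), which was 31.9% of all members, against 58.8% of the regions in all 4 lists and 31.4% of those missing from the P list at day −2. Of the 100 strongest C peaks 23 were members and 55 had a peak in all 4 lists.

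**Figure D5:**
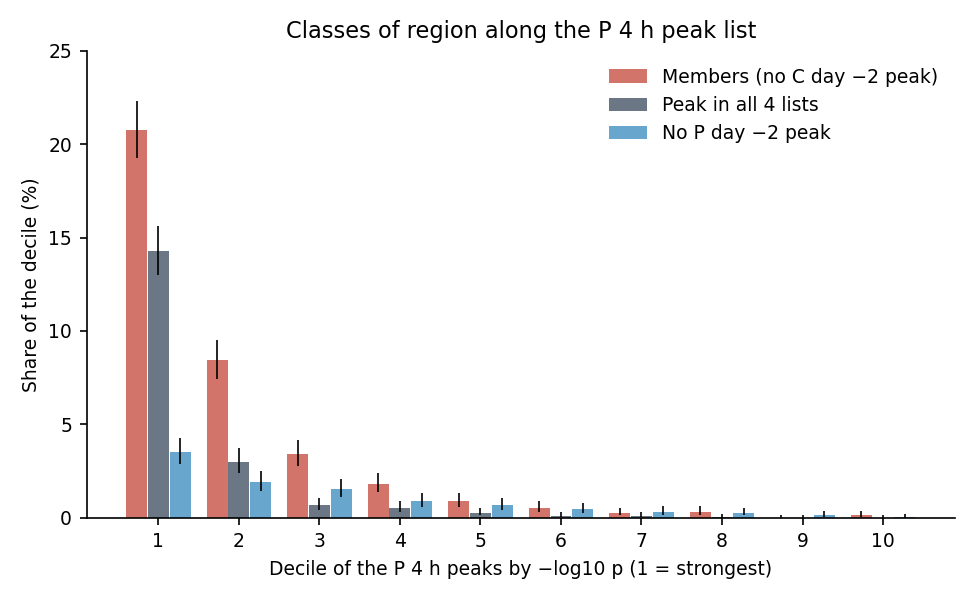
Share of each decile of the P peaks at 4 h (vertical axis, percent, with 95% Wilson intervals) that belongs to 3 classes of region, with the peaks ordered by −log10 p (horizontal axis, 1 is strongest). The members make up 20.7% of the strongest decile, 8.42% of the second and 3.41% of the third.

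The distance of the members from the C peaks of day −2 is set largely by the rule and by the 838 peaks of that list. Its median was 634 kb, and it was 675 kb for the regions with peaks at 4 h only. A C peak at day −2 was within 1 kb of 4 members (0.409%, 0.159 to 1.05) and of 40 of the 9787 regions with peaks at 4 h only (0.409%). Within 10 kb the shares were 2.66% (1.82 to 3.87) and 2.88% (2.57 to 3.23). The nearest gap was 245 bp, at chr8:74669996-74670319, a site chosen for its distance after the values were seen. There the fold enrichment was 7.97 in P cells at day −2, 21.3 in C cells at 4 h and 39.9 in P cells at 4 h.

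Members were spread over all autosomes and the X chromosome, and 1 lay on a sequence outside these. They made up 8.47% (7.98 to 8.99) of the regions with both 4 h peaks. By chromosome the share ran from 6.70% (5.23 to 8.54) on chromosome 1 to 10.8% (8.23 to 14.01) on chromosome 16, and these 2 intervals overlapped. Chromosome 6 had 83 members and chromosome 2 had 82, the most of any. Within 50 kb of a member there was a median of 3 other regions of the P list at 4 h, against 2 for each of the other 3 classes, a step of 1 region with overlapping interquartile ranges. The means were 3.28 for the members, 3.11 for the regions in all 4 lists and 3.05 for those with peaks at 4 h only.

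Some members lay in groups. With gaps of up to 100 kb between them, 747 members stood alone, 164 were in pairs, 45 in groups of 3, 15 in groups of 5 and 6 in 1 group of 6. The groups of 5 and 6 were chosen after their values were seen. The group of 6 spanned 202 kb at chr6:115290167-115492104, where no C peak was listed at day −2 and 26 regions of the P list and 17 of the C list were found at 4 h. Its members had median fold enrichments of 8.46 in P cells at day −2, 16.2 in C cells at 4 h and 26.8 in P cells at 4 h. Every P region at day −2 inside it was a member. At its second site, chr6:115362457-115362831, fold enrichment was 12.9 in P cells at day −2 and, at 4 h, 20.8 in C and 36.0 in P cells. At the fourth, chr6:115402489-115403190, it was 7.20, 22.6 and 22.5, from 14, 51 and 89 fragments.

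The groups of 5 lay at chr12:80473771-80715127, chr15:3618928-3782134 and chr2:117664177-117865366. Their medians were 9.47, 8.36 and 9.93 for P at day −2. At 4 h they were 11.4, 10.4 and 17.5 in C cells, against 23.0, 27.9 and 29.0 in P cells. The group on chromosome 2 held no C peak at day −2 and the other two held 1 each. On chromosome 12 one member, chr12:80536467-80536809, was 1506 bp from a C peak of day −2, with fold enrichments of 9.79, 23.8 and 35.9.

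Input background was raised at some members. The genome background was 0.47, 0.48 and 0.46 fragments in P cells at day −2, C cells at 4 h and P cells at 4 h. Low multiples of it therefore stand for few input fragments, and the counting error of the input was not estimated. The median input background was 2.11 times the genome background in P cells at day −2, 2.09 times in C cells at 4 h and 2.17 times in P cells at 4 h. It was at least 5 times in 39, 46 and 72 members, in 141 (14.4%, 12.4 to 16.8) in any of the 3 lists and in 2 in all 3. In either 4 h list it was at least 5 times in 11.6% (9.71 to 13.7) of the members, 12.8% (10.19 to 16.0) of the regions in all 4 lists, 8.05% (5.32 to 11.99) of those missing from the P list at day −2 and 7.73% (7.22 to 8.28) of those with peaks at 4 h only. These 2, and the sites below, were chosen after their values were seen. At chr10:116984322-116984864 the background was 84.4, 104 and 124 times the genome background and fold enrichment only 3.23, 3.09 and 4.29, although 132, 155 and 248 fragments were counted. At chr2:77764091-77764412 it was 35.1, 30.6 and 29.4 times. Without the 141 members the median log2 P/C ratio at 4 h was 0.82, inside the interval of the value with them.

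On chromosome 10, 6 of 57 members had a background of at least 8 times in P cells at day −2, against 11 of 977 overall. At chr10:106642378-106642838, the member with the highest −log10 p in P cells at day −2 (93.9), fold enrichment was 15.7 in P cells at day −2 and, at 4 h, 15.7 in C and 24.0 in P cells. The fragments were 109, 46 and 191 and the background was 12.7, 4.18 and 15.2 times. At chr10:107052569-107052934 the background was 8.44, 1.99 and 7.25 times, and at chr10:107766934-107767356 it was 9.28, 1.75 and 8.68 times. Between 106 and 108 Mb of this chromosome the 17 regions with both 4 h peaks had a median background of 2.16 times for C and 6.51 times for P cells. Between 116 and 118 Mb the 31 such regions had 6.27 and 23.9 times. The input of P cells was therefore higher than that of C cells at both places, and its part in the calls of these 6 members was not tested.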

How the data were processed

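The authors sequenced ChIP and input DNA on an Ion Torrent instrument, aligned reads to mm9 with Bowtie 0.12.8 keeping unique alignments, removed duplicates and equalised read numbers with Samtools, and called peaks with MACS2 2.0.10.20131028 for 1 ChIP library against its input at a −log10 p of 5. The deposited fold enrichment is a ratio, ChIP fragments plus 1 over local background plus 1 at the summit. The deposited −log10 p and −log10 q come from the same peak caller. Peaks under the threshold are missing from a list, and list length moves with library strength.

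Lists were read with pandas 2.3.3 and numpy 2.4.6 in Python 3.11.15. A region took the peak of highest −log10 p of each list. Whole fragments and the input background were recovered from fold enrichment and the Poisson p (scipy 1.17.1). For 100% of peaks the recovered values gave back the −log10 p within 0.001, and the step was checked on simulated data. The genome background is the lowest background of a list, and depth follows from it with a genome of 2.7e+09 bp. Shares have 95% Wilson intervals (statsmodels 0.14.6), medians order-statistic intervals and fragment ratios exact Clopper-Pearson intervals. With 1 library per group and members chosen on these calls, no test was made. Named regions were the 8 with the highest lowest −log10 p, the 5 with the highest −log10 p in P cells at day −2, the 3 highest and 3 lowest P/C ratios, the 3 highest ratios of P at day −2 over C at 4 h, and those nearest the threshold. Members and classes were chosen with earlier results of these data known. Coordinates count from 1. Genes, transcription start sites, motifs and sequences were left out, since the gene table used here belongs to a later build than mm9 and no genome was used. Figures were drawn with matplotlib 3.10.9.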

Additional observations from a re-analysis of the deposited data

How the results depend on the processing

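The direction of every median ratio was the same under every alternative that applied to it. Of the 17 alternatives 2 were chosen after seeing the data, and 122 of 153 values stayed inside the interval of the value reported, or within 1.5 times it for the number of members. The number of members depended on the lists. With the same number of peaks from both cell types at each time there were 408 members, all among the 977 (41.8% of them). Without the P peaks at day −2 that were narrower than the shortest C peak there were 379 (38.8%). In the first of these sets the median log2 ratio of P cells at 4 h over day −2 was 1.22, at least 2-fold in 60.05%, the median log2 ratio of C at 4 h over P at day −2 was 0.33, and the summits of P at day −2 and C at 4 h were within 50 bp in 93.4%, with a median distance of 12.5 bp. In the second, 65.7% were at least 2-fold higher at 4 h in P cells and 84.7% of summits were within 50 bp. The median log2 P/C ratio at 4 h of the regions missing from the P list at day −2, for which all alternatives were added after seeing the data, was 0.46 in the first case and 0.43 in the second, and its distance from that of the members went from 0.49 to 0.34 and 0.38. That class held 353 and 438 regions in these cases, against 261, so it was not the same set of regions. A reciprocal overlap of at least 50% gave 1.28 and 63.2% for P cells at 4 h over day −2, 0.47 for C at 4 h over P at day −2 and 91.5% of summits within 50 bp, and a −log10 p of at least 10 gave 89.96% of summits. When −log10 p replaced fold enrichment, the log2 P/C ratio at 4 h was by the median 1.04, at least 1.5-fold in 77.6%, that of P cells over time was 1.99, at least 2-fold in 84.4%, that of C at 4 h over P at day −2 was 0.86, and the P/C ratio of the regions missing from the P list was 0.44. With fragments the corresponding shares were 75.9% and 77.2%, the ratio over time was 1.49 and that of the regions missing from the P list was 0.42. Summits were within 100 bp in 96.4% and within 25 bp in 67.6% of members, and a C peak at day −2 was within 10 kb of 2.66%. No paired analysis was possible because each group has 1 sample, and no replicate could be left out. Alternatives on motifs and transcription start sites were not run, since no mm9 genome or annotation was used. The cause of these shifts was not tested. At this depth the p at a day −2 summit reaches the threshold with 6 fragments at the genome background. The fewest in a listed day −2 peak were 7 in C and 8 in P cells. At the members' relative input background the number needed by p had a median of 8 in C cells, with a range of 6 to 86. Binding in C cells under the number needed at a site was not detectable.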
